A study of Mus musculus with 2 samples.

Results

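The Ly6 genes *Ly6a*, *Ly6c1*, *Ly6c2*, *Ly6d*, *Ly6e* and *Ly6i* were followed across the immune cells of B16-OVA melanomas. They were taken by gene symbol, with earlier results of these data known, and are 6 of the 17232 genes of the table. *Maoa* WT mice and *Maoa* KO mice bore the B16-OVA tumors, which express the model antigen ovalbumin, and DAPI-CD45.2+ immune cells sorted on day 14 went to single-cell RNA sequencing. The KO mice carried a hypomorphic mutation of *Maoa*, which encodes the enzyme that breaks down serotonin and other monoamines, on a C57BL/6J background, and the study's methods give an age of 8 to 12 weeks for its mice. For each genotype 10 tumors were combined and gave 1 library, so there was no replicate of either genotype and no test between genotypes. Every interval below is a 95% interval of counting error only.

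Ly6 proteins are small, disulfide-bonded proteins that are mostly held on the cell surface by a GPI anchor. *Ly6a* encodes Sca-1, a marker of hematopoietic stem cells that is also found on activated lymphocytes. *Ly6c1* and *Ly6c2* encode the Ly6C antigens by which classical monocytes are told from nonclassical monocytes and which also mark memory CD8 T cells. *Ly6d* is used as a marker of early B-lineage cells and is expressed by plasmacytoid dendritic cells (pDCs), and *Ly6e* is induced by type I interferon, as is *Ly6a*.

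All 6 genes lie on mouse chromosome 15 within 349.915 kb (build GRCm38). In order along the chromosome they were *Ly6d* (chr15:74762056-74763620, minus strand), *Ly6e* (chr15:74955051-74959905, plus strand), *Ly6i* (chr15:74979534-74983430, minus strand), *Ly6a* (chr15:74994877-74998031, minus strand), *Ly6c1* (chr15:75044018-75048830, minus strand) and *Ly6c2* (chr15:75108158-75111970, minus strand). Each range covers the whole annotated gene, exons and introns. The coding sequences of *Ly6c1* and *Ly6c2* were identical at 97.71% of positions and differed at 9 of 393 bases. The pair bears on every Ly6C value below, so bases 1 to 150 of both coding sequences are shown, with the 6 differing bases in capitals.
Ly6c1: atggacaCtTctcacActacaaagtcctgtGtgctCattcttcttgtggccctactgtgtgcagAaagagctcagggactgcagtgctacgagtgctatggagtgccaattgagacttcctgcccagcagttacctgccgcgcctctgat
Ly6c2: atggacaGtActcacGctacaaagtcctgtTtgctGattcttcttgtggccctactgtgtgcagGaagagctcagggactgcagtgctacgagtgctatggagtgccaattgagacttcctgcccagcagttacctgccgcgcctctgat
The other pairs were less alike, with 86.32% for *Ly6a* and *Ly6i* and 83.46% for *Ly6a* and *Ly6c2*. In the last 500 bases of the transcript, where 3′ libraries take their reads, 3 of 42 windows of 90 bases of *Ly6c2* were also found in *Ly6c1*, and 4 of 42 windows of *Ly6c1* in *Ly6c2*. A read that lies within such a window cannot be assigned to either gene, so the split between *Ly6c1* and *Ly6c2* is uncertain to that extent. None of the 42 windows of the other 4 genes was shared with another member.

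Because *Ly6c2* had 31185 UMIs in these cells and *Ly6c1* 182, although their coding sequences are so alike, the 250 bases before the start site of each are also shown, from RefSeq (GRCm38.p6, minus strand, written 5′ to 3′). Promoters of 2 of the 6 genes were matched. Capitals mark TATAAA and CCAAT in *Ly6c1* (chr15:75048838-75049087) and GAGGAAG, a core recognized by the myeloid factor PU.1, in *Ly6c2* (chr15:75111972-75112221).
Ly6c1 promoter: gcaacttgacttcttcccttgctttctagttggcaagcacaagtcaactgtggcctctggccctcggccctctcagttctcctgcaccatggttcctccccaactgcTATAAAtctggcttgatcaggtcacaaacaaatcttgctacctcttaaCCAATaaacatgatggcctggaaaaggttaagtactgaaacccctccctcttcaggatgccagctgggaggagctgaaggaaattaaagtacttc
Ly6c2 promoter: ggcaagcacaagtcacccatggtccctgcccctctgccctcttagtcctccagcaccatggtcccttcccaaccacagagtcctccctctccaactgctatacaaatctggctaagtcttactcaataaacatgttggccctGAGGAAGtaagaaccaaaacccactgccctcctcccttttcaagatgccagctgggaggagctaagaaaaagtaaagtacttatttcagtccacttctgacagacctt
The promoters were identical at 75.93% of 216 aligned bases. Both strands were searched for 5 motifs that do not overlap one another in these windows. TATAAA and CCAAT were each found in *Ly6c1* and not in *Ly6c2*, and they occur in 12.4% and 33.8% of 32851 promoter windows. GAGGAAG was found in *Ly6c2* and not in *Ly6c1*, and occurs in 10.6% of them. TTCNNNGAA, which STAT factors bind, and GAAANNGAA, which interferon regulatory factors bind, were in neither, against 7.02% and 7.13% of all windows. These are matches of letters only.

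There were 2392 cells (28801253 UMIs, median 9887.5 per cell) under the label WT and 2630 (23702018 UMIs, median 6945.5) under the label KO. Cells were clustered without any gene whose symbol starts with Ly6, and 4470 of 5022 cells fell into the 16 classes described here. Classes were named from marker genes, as in "monocyte-like" or "NK-like" (shortened here to monocytes, NK cells and so on), and 3 without enough markers are called by a leading gene: *Ifit3*-led myeloid cells, *Klra7*-led T cells and *Cd40lg*-led T cells. The targeted gene did not bear out the labels, with 7 *Maoa* UMIs in the library labelled WT and 15 in the library labelled KO. Whether the counted 3′ end lies outside the mutated stretch is not given in the sources used here. The methods name female mice unless stated otherwise, yet a UMI of a Y-linked gene was present in 66.1% and 58.6% of cells. Cells with at least 3 UMIs of the Cd3 genes and at least 5 UMIs of the myeloid markers, which can be doublets, are called mixed. They made up 18.8% and 9.66% of the 2 libraries, and 13 cell barcodes were shared. The thresholds are not scaled to depth, so deeper cells pass them more readily. Mixed cells were 39.8% and 35.6% of cycling T cells (median 17461 and 16695 UMIs), but 2.15% and 0.37% of NK cells (4878.5 and 3992). Leaving them out can also remove deep cells that are no doublets, which was not tested. All ratios were also taken without these mixed cells, and those of *Ly6a*, *Ly6c2*, *Ly6e* and *Ly6i* that then changed sides of 0 beyond counting error, or of 1.5-fold, are given both ways. All 10 pDC markers, 12 of 12 NK markers and 11 or 12 of 12 classical monocyte markers were detected in the classes of those names. In total *Ly6e* had 58668 UMIs, *Ly6a* 32836, *Ly6c2* 31185, *Ly6d* 3435, *Ly6i* 1364 and *Ly6c1* 182.

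**Figure D1:**
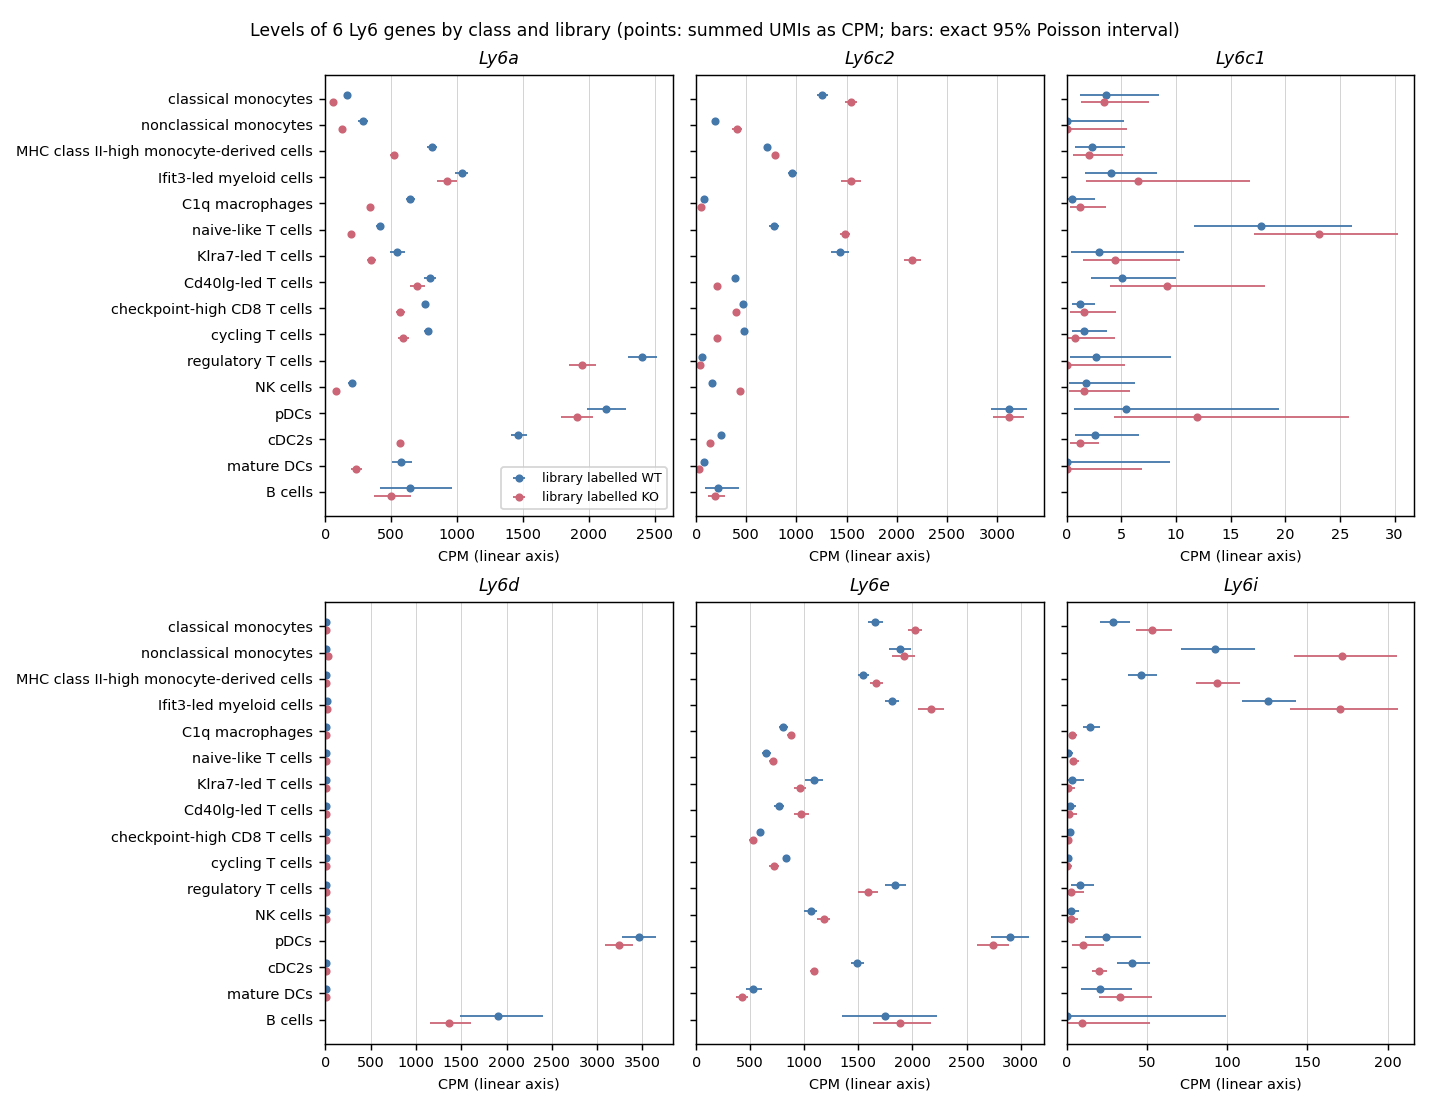
Level of each Ly6 gene (CPM, linear axis with its own range in each panel) by class in the libraries labelled WT and KO, as points with exact 95% Poisson intervals. B cells, with 0 *Ly6c1* UMIs, are left out of the *Ly6c1* panel. *Ly6e* is found in all classes shown, *Ly6d* stands out in pDCs and B cells, and *Ly6a* in regulatory T cells and pDCs. By the level over both libraries, *Ly6c2* is highest in pDCs, *Klra7*-led T cells and classical monocytes.

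*Ly6a* (Sca-1) was highest in regulatory T cells and pDCs and lowest in NK cells and classical monocytes, and its level was lower in the library labelled KO in 15 of 16 classes (11 without mixed cells). Values are in CPM, the UMIs of a gene per 1000000 UMIs of the class, and each pair gives the library labelled WT first. Regulatory T cells held 2404 CPM (2295 to 2517) and 1952 CPM (1849 to 2059), and pDCs 2131 and 1908 CPM. Regulatory T cells came first in both libraries, but in the library labelled KO they did not differ from pDCs beyond counting error (1.02-fold, or 1.13-fold and beyond it without mixed cells). Among the other T cells, naive-like T cells had 413 and 197 CPM. The level in regulatory T cells was therefore 5.81-fold that of naive-like T cells in the library labelled WT and 9.92-fold in the library labelled KO. On the log2 scale these were 2.54 and 3.31, and over the alternatives they lay between 1.74 and 2.82 and between 2.66 and 3.64. Between these ends, *Ifit3*-led myeloid cells had 1034 and 922 CPM and cDC2s 1466 and 566. *Cd40lg*-led T cells (795 and 695), cycling T cells (776 and 589), checkpoint-high CD8 T cells (757 and 569) and MHC class II-high monocyte-derived cells (807 and 519) followed closely on one another. Cycling and checkpoint-high CD8 T cells did not differ beyond counting error in either library, and without mixed cells *Cd40lg*-led T cells had 1071 and 958 CPM. By the level over both libraries, C1q macrophages were followed by *Klra7*-led T cells (544 and 347) and mature DCs (577 and 234), an order that neither library held throughout, and then by naive-like T cells and nonclassical monocytes (282 and 125). NK cells (198 and 80.4) were level with classical monocytes within counting error in the library labelled WT (log2 ratio 0.27, -0.0016 to 0.54) and above them in the library labelled KO (0.50, 0.088 to 0.92). Without mixed cells NK cells had 192.8 and 80.7 CPM and lay above classical monocytes in the library labelled WT too (1.61, 1.21 to 2.04).

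Within the myeloid cells, *Ly6a* was higher in C1q macrophages than in classical monocytes. C1q macrophages, the mature tumor macrophages that express complement *C1q* genes, had 645 and 337 CPM of *Ly6a*, against 164 and 56.7 in classical monocytes, a 3.92-fold and a 5.92-fold difference. Without mixed cells, which were 11.2% and 3.24% of classical monocytes, the monocytes had 62.8 and 54.1 CPM and the C1q macrophages 631 and 328. The macrophages lay above the monocytes in both libraries, with and without the mixed cells.

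Over all cells, the log2 ratio of *Ly6a* between the libraries (KO over WT) was -0.68 (-0.71 to -0.65), and by class its interval lay below 0 in 15 of 16 classes and above 0 in none. Without mixed cells it lay below 0 in 11 classes: it then included 0 in classical monocytes, *Ifit3*-led myeloid cells (-0.16 with mixed cells, -0.013 without), *Cd40lg*-led T cells (-0.19 and -0.16) and pDCs (-0.16 and -0.13). The share of all genes with an interval off 0 is not given here, for this or the other members. In *Klra7*-led T cells the ratio was -0.65 with mixed cells and -0.52 without, on either side of 1.5-fold. With mixed cells, 4.84% of genes were past 1.5-fold lower there. Cells with neither *Cd4* nor Cd8 UMIs were 37 of 116 and 124 of 243 in this class, with 262 and 151 CPM of *Ly6a*. Those with Cd8 but no *Cd4* UMIs had 663 and 513 CPM, and the part of this mix in the ratio was not tested. The ratio was -0.94 (-1.06 to -0.81) in C1q macrophages, -1.07 (-1.25 to -0.89) in naive-like T cells and -1.30 (-1.65 to -0.95) in NK cells. In each of these 3 classes *Ly6a* was past 1.5-fold lower, as were 4.85%, 16.5% and 4.22% of all genes with at least 100 UMIs in the class. Classical monocytes had a ratio of -1.53 with mixed cells, where 9.15% of genes were past 1.5-fold lower, and -0.22 (-0.69 to 0.27) without them, so counting error did not separate the libraries there. With classes set by gates on marker UMIs, the ratio in C1q macrophages was -0.24. The 2 highest classes differed by less, with -0.30 (-0.40 to -0.20) in regulatory T cells, where 3.74% of genes were past 1.5-fold lower, and -0.16 (-0.30 to -0.02) in pDCs with mixed cells, where 3.73% were. Neither of these was past 1.5-fold.

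In cDC2s and naive-like T cells the lower *Ly6a* was seen as fewer positive cells as well as fewer UMIs. To compare cells at 1 depth, 3000 UMIs were drawn from every cell (0 and 42 shallower cells were dropped). Of cDC2s, the class named by markers of conventional type 2 dendritic cells, 15.7% and 57.0% then had no *Ly6a* UMI. The shares with one before thinning were 96.1% and 68.1%. No class was named for type 1 dendritic cells, and whether such cells lie among the cDC2s was not tested. The CPM of cDC2s was 1466 and 566, a log2 ratio of -1.37 (-1.46 to -1.29), and 7.13% of all genes were past 1.5-fold lower in this class and 2.43% higher. Without mixed cells the ratio was -1.62. At resolution 1.2 the cluster that took the name cDC2 held only 13 and 25 cells, in place of 102 and 251, and its ratio was -0.43 (-0.63 to -0.23), not past 1.5-fold. In naive-like T cells the share without a UMI was 50% and 70.7% (68.0% and 37.4% had one before thinning). Before thinning, 100% of regulatory T cells were positive in both libraries. After thinning, 97.8% and 100% of them had a UMI, and 28.3% and 9.88% had at least 10. *Ly6a* in checkpoint-high CD8 T cells, the exhausted-like cells that express *Pdcd1*, was 757 and 569 CPM, a ratio of -0.41 (-0.51 to -0.32), where 4.68% of genes were past 1.5-fold lower and 2.56% higher.

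**Figure D2:**
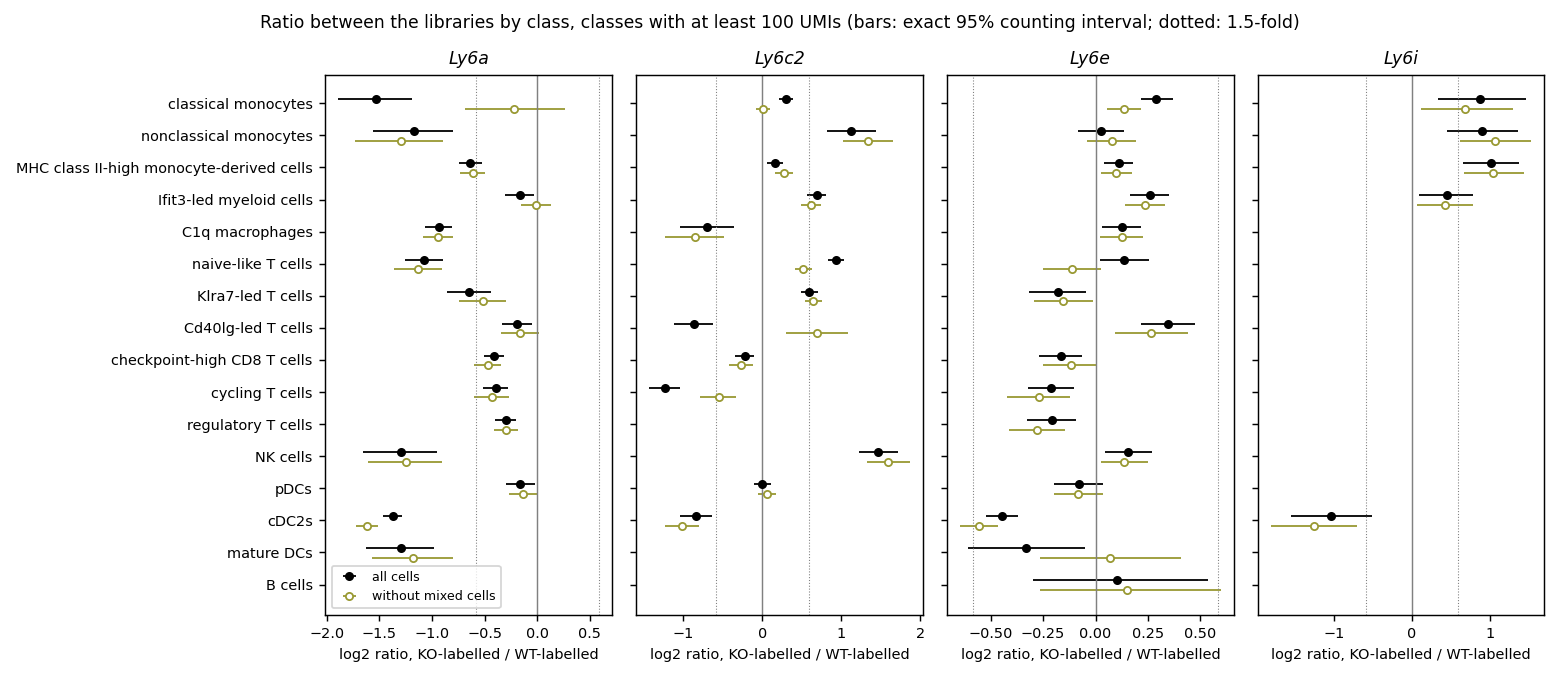
log2 ratio (KO over WT) of 4 Ly6 genes by class, for classes with at least 100 UMIs of the gene, with exact 95% intervals of counting error. Filled points are all cells, open points leave out mixed cells and dotted lines mark 1.5-fold. All *Ly6a* points shown lie below 0, while *Ly6c2* points lie on both sides.

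*Ly6c2* was highest in pDCs, at 3118 and 3117 CPM (log2 ratio 0.00, -0.11 to 0.11). *Klra7*-led T cells had 1430.4 and 2156 CPM, classical monocytes 1259 and 1546, and naive-like T cells 775 and 1481. Regulatory T cells were at the low end with 54.0 and 36.3 CPM. pDCs, classical monocytes and naive-like T cells thus all carried *Ly6c2*, and regulatory T cells had little of it. *Ifit3*-led myeloid cells had 958 and 1541 CPM and MHC class II-high monocyte-derived cells 709.5 and 791. Lower in both libraries were checkpoint-high CD8 and cycling T cells, *Cd40lg*-led T cells (386 and 212), NK cells, nonclassical monocytes and cDC2s (249 and 139), whose order differed between the libraries. Mature DCs had 76.9 and 26.0 CPM (26.1 and 29.9 without mixed cells, with a ratio of -1.54 that was then 0.16), which did not differ from regulatory T cells beyond counting error in either library. Levels without mixed cells were 1112 and 1591 CPM in naive-like T cells and 180.5 and 291 CPM in *Cd40lg*-led T cells.

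From classical monocytes to C1q macrophages *Ly6c2* went from high to low. Its level in classical monocytes was 15.3-fold that in C1q macrophages (82.3 CPM) in the library labelled WT and 30.4-fold (50.7 CPM) in the library labelled KO. On the log2 scale this was 3.93 and 4.92. With gates on marker UMIs in place of clusters it was 0.73 and 0.58. That gate was for monocytes in general, which nonclassical and other monocyte-like cells can pass, so the populations compared were not the same. Nonclassical monocytes, the patrolling monocytes low in Ly6C, lay between with 184 and 403 CPM. Beside *Lyz2*, the lysozyme gene of myeloid cells, there were 5.29 and 4.79 *Ly6c2* UMIs per 100 *Lyz2* UMIs in classical monocytes, 1.40 and 0.87 in C1q macrophages, and 482 and 654 in naive-like T cells. The part of RNA free in the droplets in these levels was not tested.

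Between the libraries, *Ly6c2* was higher in the library labelled KO in 7 classes and lower in 6, by the interval of the ratio (7 and 4 without mixed cells). Naive-like T cells had a log2 ratio of 0.93 (0.84 to 1.03), past 1.5-fold, where 4.34% of all genes were past 1.5-fold higher. Mixed cells were 12.8% and 4.74% of this class, and without them the ratio was 0.52 (0.41 to 0.63). Thinned naive-like T cells without a *Ly6c2* UMI were 42.4% and 19.6%, and those with at least 10 UMIs were 6.98% and 13.8%. Before thinning, 65.1% and 81.5% of these cells had a UMI. In regulatory T cells, the T cell class with the least *Ly6c2*, the share with a UMI was 14.1% and 7.41% thinned, at median depths of 6020 and 5556.5 UMIs against 4872.5 and 4640 in naive-like T cells. Among naive-like T cells with *Cd8a* or *Cd8b1* but no *Cd4* UMIs, *Ly6c2* was 895 (840 to 954) and 1461 (1406 to 1519) CPM. Naive-like T cells held 2 sub-clusters, with *Ly6c2* at 905 and 1697 CPM in the larger (ratio 0.91) and at 312 and 403 CPM in the smaller, where the ratio of 0.37 (-0.007 to 0.75) was within counting error. *Klra7*-led T cells had a ratio of 0.59 (0.48 to 0.70), and 0.65 without mixed cells, where 2.92% of all genes were past 1.5-fold higher with mixed cells.

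C1q macrophages went the other way from naive-like T cells, with a *Ly6c2* ratio of -0.70 (-1.04 to -0.36), past 1.5-fold lower as were 4.85% of genes (4.65% were past 1.5-fold higher). That sign depended on the classes: it was 0.16 with 20 principal components and 0.39 with gates. The class joined 2 sub-clusters, with a ratio of -0.98 (-1.42 to -0.57) in the larger and 0.61 (-0.16 to 1.51), within counting error, in the one led by *Birc5*, which held 22 and 49 cells. Classical monocytes had a ratio of 0.30 (0.21 to 0.38), which was 0.01 (-0.08 to 0.10) without mixed cells. Their *Ly6c2* therefore did not differ beyond counting error once the mixed cells were left out, at 1543 and 1549 CPM. Their 2 sub-clusters differed in direction, with 1637 and 1477 CPM in the one led by *Hp* and *Tppp3* and 1031 and 1630.4 CPM in the one led by *Ifitm6* and *Dmkn*. Of the other myeloid classes, nonclassical monocytes had a ratio of 1.12 (0.82 to 1.44, or 2.29 with 20 principal components), *Ifit3*-led myeloid cells 0.69 (0.57 to 0.80) and MHC class II-high monocyte-derived cells 0.16 (0.05 to 0.26, or 0.27 without mixed cells), all toward the library labelled KO. Of all genes, 3.87% in nonclassical monocytes, 5.54% in *Ifit3*-led myeloid cells and 2.92% in MHC class II-high monocyte-derived cells were past 1.5-fold higher. cDC2s had a ratio of -0.84 (-1.04 to -0.64), past 1.5-fold lower as were 7.13% of genes.

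In NK cells *Ly6c2* was 159.8 and 441 CPM, a ratio of 1.46 (1.22 to 1.71), and 3.03% of genes were past 1.5-fold higher. The UMIs were concentrated in few cells. In the library labelled WT, 7 of 186 cells had at least 10 *Ly6c2* UMIs and held 54.9% of those of the class, and in the library labelled KO 16 of 270 cells held 70.4%. Of these cells, 5 and 11 had a Cd3 UMI, and their Cd3 level was 1534 and 1168 CPM against 330.3 and 223 CPM in the other cells of the class. The thinned share of NK cells with a *Ly6c2* UMI was 19.9% (14.4% to 26.4%) and 21.8% (16.98% to 27.3%), with overlapping intervals, and 24.7% and 27.0% before thinning. Without any cell that had a Cd3 UMI, a choice made after seeing the data, the ratio was 1.07. With NK cells set by gates on marker UMIs it was 0.60.

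In activated T cells the ratio over each class was below 0. Checkpoint-high CD8 T cells had 467 and 400 CPM of *Ly6c2*, a ratio of -0.22 (-0.34 to -0.11), and cycling T cells had 482 and 205 CPM, a ratio of -1.23 that was -0.55 without mixed cells, which were 39.8% and 35.6% of the class. Past 1.5-fold lower were 3.71% of all genes in cycling T cells and 4.68% in checkpoint-high CD8 T cells. The ratio in checkpoint-high CD8 T cells was 0.24 with 20 principal components, so its sign was not stable. Its 3 sub-clusters also differed in direction: the ratio was -0.41 (-0.59 to -0.25) in the one led by *Slc16a11* and *Cxcr6*, -1.55 (-1.78 to -1.32) in the one led by *Ccl5* and *Spp1*, and 0.85 (0.61 to 1.09) in the one led by *Gzmf* and *Gzmd*, which held 46 and 10 cells. For *Cd40lg*-led T cells the sign turned: the ratio was -0.86 with mixed cells (31.1% and 16.1% of the class) and 0.69 without them. With mixed cells, 8.09% of all genes in that class were past 1.5-fold lower and 4.92% higher.

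**Figure D3:**
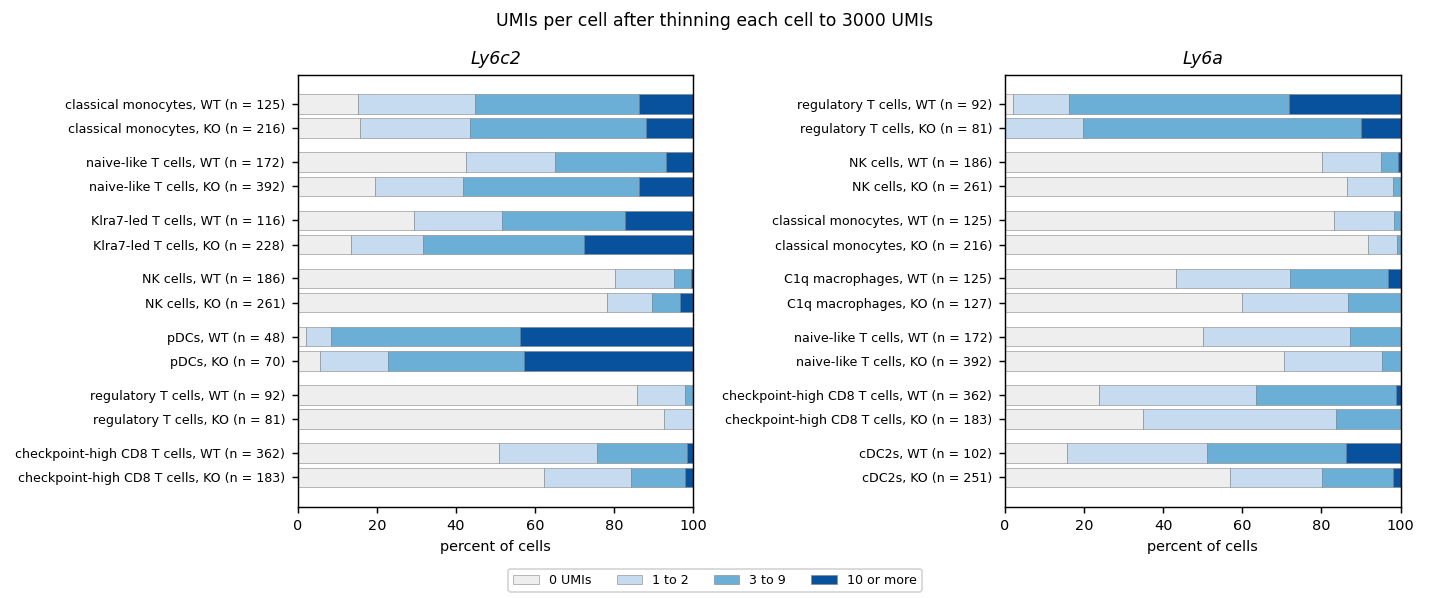
Percent of cells with 0, 1 to 2, 3 to 9 or 10 or more UMIs of *Ly6c2* (left) and *Ly6a* (right) by class and library, with each cell thinned to 3000 UMIs. Naive-like T cells without *Ly6c2* are 42.4% and 19.6% under the labels WT and KO, while 43.8% and 42.9% of pDCs have 10 or more *Ly6c2* UMIs.

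*Ly6c1* had only 182 UMIs over both libraries. Naive-like T cells had 17.8 and 23.05 CPM, the highest value of the classes but within counting error of the next, pDCs, in both libraries (without mixed cells, in the library labelled KO only). Within this class the libraries did not differ beyond counting error (log2 ratio 0.36, -0.33 to 1.11). Within naive-like T cells, 1 sub-cluster of 75 and 90 cells had 71.8 (45.5 to 108) and 113.6 (81.8 to 153) CPM and held 28.0% and 42% of the *Ly6c1* UMIs of the libraries. *Ly6c1* was found in 11 and 19 cells of this sub-cluster, at up to 6 UMIs in a cell, and 9 and 15 of them had no *Ly6c2* UMI. Classical monocytes had 5 and 6 *Ly6c1* UMIs beside 1741 and 2699 of *Ly6c2*.

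*Ly6d* was a gene of pDCs and B cells. pDCs had 3460 and 3240 CPM (log2 ratio -0.09, -0.20 to 0.01) in 48 and 70 cells, and 3.22% of all genes were past 1.5-fold higher in this class. B cells had 1908 and 1365 CPM, in only 7 and 24 cells. No other class was above 25.4 CPM, and 34 of the 38 UMIs of *Ifit3*-led myeloid cells in the library labelled WT came from 1 cell. The libraries did not differ in pDC *Ly6d* beyond counting error.

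*Ly6e*, whose product limits the entry of several viruses, was found in every class at 419.6 CPM or more (394 or more without mixed cells). pDCs were highest with 2899 and 2742 CPM. Lowest were mature DCs (528 and 419.6, or 394 and 414 without mixed cells) and checkpoint-high CD8 T cells (588 and 524). The monocytes and cells near them lay toward the upper end: *Ifit3*-led myeloid cells had 1812 and 2169 CPM, nonclassical monocytes 1884 and 1919, and MHC class II-high monocyte-derived cells 1544 and 1666. Regulatory T cells had 1837 and 1589 CPM, above every other T cell class. *Klra7*-led T cells had 1088 and 959.6 CPM, *Cd40lg*-led T cells 765 and 973, and naive-like T cells 648 and 713 (799 and 739 without mixed cells). Steps down the order that were beyond counting error in both libraries, with and without mixed cells, were those from pDCs to *Ifit3*-led myeloid cells, from *Klra7*-led T cells to C1q macrophages and from naive-like to checkpoint-high CD8 T cells. After thinning, all pDCs and regulatory T cells had a *Ly6e* UMI. The pDC level was 4.93-fold and 5.24-fold that of checkpoint-high CD8 T cells. Classical monocytes, at 1655 and 2025 CPM, had 2.05-fold and 2.30-fold the level of C1q macrophages. No class was past 1.5-fold between the libraries in either direction, and the ratio was 0.29 in classical monocytes (0.14 without mixed cells), 0.16 in NK cells, -0.21 in regulatory T cells and -0.45 (-0.52 to -0.37) in cDC2s. Without mixed cells the *Ly6e* ratio went from 0.14 to -0.11 (-0.25 to 0.026) in naive-like T cells, from -0.17 to -0.12 (-0.25 to 0.007) in checkpoint-high CD8 T cells and from -0.33 to 0.068 (-0.27 to 0.41) in mature DCs, so that none of these was then beyond counting error.

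*Ly6i* was a myeloid gene in these cells. *Ifit3*-led myeloid cells had 125 and 170.4 CPM and nonclassical monocytes 92.2 and 172, while no T or NK class was above 7.9 CPM. *Ifit3*-led myeloid cells were above nonclassical monocytes in the library labelled WT (log2 ratio 0.44, 0.038 to 0.87) and level with them within counting error in the other. Mature DCs had 20.5 and 33.4 CPM and pDCs 24.3 and 9.91, on 9 and 5 UMIs. *Ly6i* was higher in the library labelled KO in nonclassical monocytes (log2 ratio 0.89, 0.44 to 1.36), MHC class II-high monocyte-derived cells (46.4 and 93.5 CPM, ratio 1.01) and classical monocytes (28.9 and 53.3 CPM, ratio 0.87), where 7.14% of genes were past 1.5-fold higher. That share was 3.87% in nonclassical monocytes and 2.92% in MHC class II-high monocyte-derived cells. cDC2s, where 7.13% of genes were past 1.5-fold lower, had 40.5 and 19.8 CPM. C1q macrophages had 14.4 and 3.27 CPM, on 31 and 8 UMIs. The ratio was -1.03 in cDC2s and -2.07 in C1q macrophages, so *Ly6i* lay higher in the monocytes and lower in these cells, and the difference between classes was not tested. With the Ly6 genes kept in the clustering the ratio in classical monocytes was -0.21, and at resolution 1.2 that in the smaller cDC2 cluster was 2.90, with an interval from -0.57 and no upper bound. In MHC class II-high monocyte-derived cells it was 0.44 with 20 principal components, not past 1.5-fold.

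A list of 37 interferon-induced genes, all in the table, was set beside the Ly6 genes. Their summed level was highest in *Ifit3*-led myeloid cells (16284 and 16033 CPM), led in UMIs overall by *Psmb8*, an immunoproteasome subunit, *Bst2*, which tethers budding virions, and *Isg15*, a ubiquitin-like protein. In C1q macrophages the sum was 4460 and 3348 CPM, and 12 of 27 list genes with at least 100 UMIs were past 1.5-fold lower in the library labelled KO and 0 higher, against 4.85% and 4.65% of all genes, with a median log2 ratio of -0.50 against 0.08 for all genes. In cDC2s, where *Ly6a* also had its lower level, 24 of 31 were past 1.5-fold lower, against 7.13% of all genes, and the medians were -0.76 and -0.09. In naive-like T cells, by contrast, the sum was 2241 and 2157 CPM and 0 of 17 were past 1.5-fold lower, against 16.5% of all genes, with medians of 0.00 and -0.16, while *Ly6a* was 413 and 197 CPM. A lower *Ly6a* was found with a lower summed list in C1q macrophages and cDC2s, and without one in naive-like T cells. *Psmb8* alone gave 765 and 700 CPM of the sum in naive-like T cells. Whether interferon had a part in the lower *Ly6a* of any class was not tested. Over 29 class-by-library sums of at least 30 cells, which share their 2 libraries and their depth, the Pearson correlation of log2(CPM + 10) with the list was 0.66 for *Ly6i*, 0.60 for *Ly6e*, 0.49 for *Ly6a*, 0.33 for *Ly6d*, 0.17 for *Ly6c2* and -0.06 for *Ly6c1*.

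**Figure D4:**
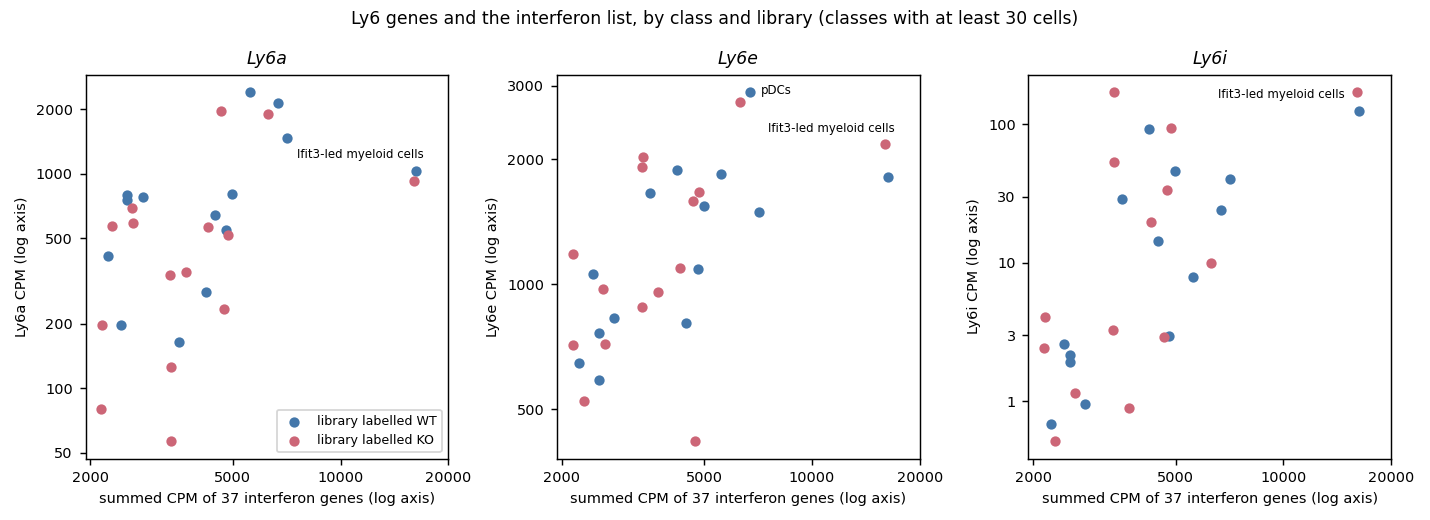
CPM of *Ly6a*, *Ly6e* and *Ly6i* against the summed CPM of the 37 interferon genes (log axes), 1 point per class and library of at least 30 cells. The cycling T cells labelled KO, with 0 *Ly6i* UMIs, are not drawn. *Ifit3*-led myeloid cells lie farthest right, with 16284 and 16033 CPM, and are not the highest for *Ly6a* or *Ly6e*.

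The genes most like each member over the same 29 sums, among 10487 genes, were *Mzb1*, *Paqr5* and *D13Ertd608e* for *Ly6d* (r = 0.99, 0.98 and 0.98), *Jarid2*, *Il1b* and *Sirpb1a* for *Ly6i* (0.92, 0.92 and 0.91), and *Cyth4*, *Xbp1* and *Tnfaip8l2* for *Ly6e* (0.88, 0.85 and 0.85). They were *Ppp1r11*, *Ergic1* and *Tlcd2* for *Ly6a* (0.78, 0.73 and 0.70), *Fam101b*, *Tmem108* and *Nsg2* for *Ly6c1* (0.77, 0.72 and 0.71), and *Pik3cd*, *Arid5a* and *H2afj* for *Ly6c2* (0.77, 0.74 and 0.68). Within the family the closest pair was *Ly6e* and *Ly6i* (0.59), followed by *Ly6c1* and *Ly6c2* (0.55). With 1 in place of 10 added, *Arid5a*, *B3galnt2* and *Cd69* came first for *Ly6c1* (0.69, 0.66 and 0.65) and *Prkcd*, *Spop* and *Jarid2* for *Ly6i* (0.93, 0.92 and 0.92), while *Dntt* entered for *Ly6d* and *Gm43672* for *Ly6c2*. The table also held 13 other genes of the family, from 7933 UMIs for *Plaur* to 1 for *Psca*.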

How the data were processed

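Single-cell RNA was measured in 2 libraries of sorted CD45.2+ tumor cells, 1 per genotype, with 10 tumors combined in each. Per the study's methods, the authors made 3′ libraries and counted UMIs with Cell Ranger (no version in the sources used here). They kept cells with at least 300 UMIs and 100 genes and at most 5% mitochondrial UMIs, and normalized them with Seurat. Those methods do not name the build, mm10, and the scale of 10000 per cell was read from the deposited values. The authors deposited natural log values, ln(1 + scaled UMIs). Whole UMIs were recovered from these for each cell, and sums per class and library are given as UMIs per 1000000 UMIs (CPM). Cells were assigned to libraries by barcode suffix. The number of per-sample columns left unused was 0.

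Cells were clustered with Seurat 5.3.0 in R 4.3.3 (13 principal components, resolution 0.8, depth regressed out, Ly6 genes left out), and T cells and monocytes with macrophages were clustered again. Doublets were not removed by a caller. Intervals were exact: Poisson for levels, binomial (Clopper-Pearson) for shares and conditional binomial for ratios, with 0.5 UMIs added to log2 ratios. A separate floor of 3 UMIs was kept for counts of 0, apart from these intervals. Statistics ran in Python 3.11.15 with numpy 2.4.6, scipy 1.17.1 and pandas 2.3.3, after tests on simulated data. No p-value is given, as cells are not replicates. The members, the interferon list and the markers were chosen with earlier results of these data known. By rule, the genes named were the 6 members, the 3 genes most like each, the 3 interferon genes with the most UMIs and, by total only, other Ly6 family genes. Genes that lead a cluster, marker genes, *Lyz2*, the targeted gene and the genes most like a member with 1 added are named beside these, and were chosen after values were seen. A further class of cells is not reported here.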

Additional observations from a re-analysis of the deposited data

Results flagged for a closer look

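*Ly6c2* and *Ly6i* differed between the libraries in opposite directions in different classes. *Ly6c2* had a log2 ratio (KO over WT) of 1.46 in NK cells (0.60 with classes set by UMI gates) and -1.23 in cycling T cells (-0.55 without mixed cells), and *Ly6i* had 1.01 in MHC class II-high monocyte-derived cells (0.44 with 20 principal components) and -1.03 in cDC2s (2.90 at resolution 1.2, within counting error). With 1 library per genotype these differences between classes were not tested.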

How the results depend on the processing

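No paired analysis was possible because each genotype had 1 library. Of 452 values under alternatives for 42 results, 338 stayed within the counting interval, 101 moved and 13 turned sign in a result whose interval lay off 0. Results whose interval held 0, such as *Ly6c1* in naive-like T cells (-0.26 to 0.69 over the alternatives) and *Ly6c2* in pDCs, also changed sign under some alternatives and are counted among the others. The cause was not tested.

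*Ly6c2* in C1q macrophages turned to 0.16 with 20 components and 0.39 with classes set by UMI gates. In checkpoint-high CD8 T cells it turned to 0.034 at resolution 1.2 and 0.24 with 20 components. In classical monocytes it was -0.010 without depth regression, -0.081 as a mean of single-cell CPM and -0.030 when thinned, and 0.18 at resolution 0.4, 0.40 with 20 components, 0.49 with Ly6 genes kept and 0.0057 without mixed cells. In *Cd40lg*-led T cells it was 0.69 without mixed cells, 0.054 as a mean of single-cell CPM and 0.12 when thinned, and *Ly6a* there was 0.015 with Ly6 genes kept. *Ly6i* was -0.21 in classical monocytes with Ly6 genes kept and 2.90 in cDC2s at resolution 1.2, where *Ly6a* was -0.43. *Ly6i* in MHC class II-high monocyte-derived cells lay between 0.44 and 1.04. The log2 contrast of *Ly6a* between regulatory and naive-like T cells moved under 8 of 11 alternatives in the library labelled WT and 7 of 11 in the library labelled KO.

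In naive-like T cells *Ly6c2* was 0.59 at resolution 1.2, 0.74 with 20 components, 0.57 without depth regression, 1.11 with Ly6 genes kept, 0.52 without mixed cells, 0.74 as a mean of single-cell CPM, 1.09 with median-of-ratios scaling, 0.81 when thinned and 0.71 in CD8 cells, the last chosen after seeing the data. In NK cells it was 1.17 with Ly6 genes kept, 0.60 with gates, 1.16 when thinned and, chosen after seeing the data, 1.07 without Cd3. *Ly6a* in C1q macrophages was -1.14 at resolution 0.4, -0.24 with gates and -0.79 when thinned. In the next contrast, the gate in place of classical monocytes was one for monocytes in general. The log2 contrast of *Ly6c2* between classical monocytes and C1q macrophages was 4.46 at resolution 0.4, 4.27 with 20 components, 4.45 without depth regression, 3.69 with Ly6 genes kept, 4.49 with another seed and 0.73 with gates in the library labelled WT, and 4.51 with 20 components, 4.599 without depth regression, 0.58 with gates and 4.66 as a mean of single-cell CPM in the library labelled KO.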

Other observations

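In thinned checkpoint-high CD8 T cells, *Ly6a* was found in 86.5% of cells with *Ly6c2* and 66.3% of the others in the library labelled WT, and in 75.4% and 58.8% in the library labelled KO. In *Klra7*-led T cells the shares were 53.7% and 52.9%, and 36.0% and 58.1%. Mixed cells, which were 29.3% and 19.7% of checkpoint-high CD8 T cells, are included, and their part in these shares was not tested.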
